A study of Mus musculus with 11 samples.

Results

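The genes described here are LIM homeobox transcription factors and the cofactors that bind their LIM domains, in hindlimb (HL) buds of mouse embryos that lack Meis1 and Meis2. The members were taken by symbol from the table of deposited expression values. They are the LIM homeobox genes Lhx2, Lhx9 and Lmx1b, the LIM domain binding genes Ldb1 and Ldb2, and the LIM-only genes Lmo1 and Lmo4. All 7 were among the 13720 genes of the table, and all 7 were also among the 12996 genes that were tested.

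RNA was measured at E10 in 11 libraries, each made from both HLs of a single embryo. The 6 mutant embryos carried disrupted Meis1 and Meis2 alleles (M1KO;M2KO, written KO for single libraries), and 5 embryos were labelled WT. Libraries were made in 2 sets, NuGen Ovation with 3 KO and 2 WT embryos, and NEBNext Ultra II Directional with 3 KO and 3 WT embryos. In the Ovation set KO S_258 came from litter 1 at 30 to 31 somites, KO S_280 from litter 3 at 32 to 33 somites and KO S_284 from litter 4 at 31 to 32 somites, and these labels read M1koM2ko. WT S_252, at 30 to 31 somites, and WT S_254, at 32 somites, both came from litter 1, and WT S_254 had 1 mutant Meis1 allele. Ovation KO embryos were male and Ovation WT embryos female, so that sex and genotype cannot be told apart within that set. NEBNext libraries are KO 2, KO 3 and KO 4, whose labels read HoxB6CreER;Meis1Ko;Meis2KO, and WT 1, WT 3 and WT 4, all at about 30 to 31 somites and with no litter or sex given. Per the study's methods the Meis2 allele was conditional and Meis1 was either conditional or deleted throughout, and the HoxB6CreER driver, activated with tamoxifen, recombines the lateral plate from which the HL forms. Cells of the bud outside that lineage, such as the ectoderm, therefore need not have lost both genes.

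LIM homeobox factors bind DNA through a homeodomain and bind Ldb proteins through a pair of LIM domains. Ldb proteins form dimers, so that they join LIM factors into larger complexes, and single-stranded DNA binding proteins of the Ssbp family hold on to Ldb and protect it from degradation. LIM-only (Lmo) proteins consist of LIM domains without a homeodomain, and can occupy Ldb in place of LIM homeobox factors. In the mouse limb bud, Lhx2 and Lhx9 are known from the distal mesenchyme under the apical ectodermal ridge (AER), where they act in outgrowth, and Lmx1b is the determinant of dorsal mesenchyme. Lmx1b also acts together with Lhx2 and Lhx9 in outgrowth of the mouse limb.

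Values are CPM, read counts per gene relative to a common library total, as the authors deposited them, after scaling and batch correction. Depth is unknown, so no counting interval is given. Differences are log2 fold changes (FC) of KO over WT fitted in limma on log2(CPM + 0.5) with library set as a term, with adjusted p-values over all 12996 genes, and a gene was counted as changed at an adjusted p under 0.05. On that scale the change of genes at a few CPM is understated. Meis1 lay between 110 and 158 CPM in KO and between 106 and 150 CPM in WT, and Meis2 between 176 and 285 CPM in KO and between 180 and 239 CPM in WT. Neither passed the test, with log2 FCs of 0.10 and 0.07. Counts over a whole gene include the exons that a deletion leaves in place, so these levels do not check the labels. Limb mesenchyme markers summed to between 875 and 1166 CPM in KO and between 726 and 975 CPM in WT, with all 7 in the table. Prrx1, the largest term of that sum, was at 583 ± 98.3 CPM in KO and 421 ± 85.4 CPM in WT. Of the 7, 5 had a log2 FC above 0 and 2 below 0. Msx1 fell and the other 6 did not pass the test, where 1.05% of all genes fell. Surface ectoderm markers summed to between 204 and 349 CPM in KO and between 248 and 329 CPM in WT. Globins and other blood genes varied widely within both groups, from 1350 to 13042 CPM in KO and from 1778 to 11719 CPM in WT. In such whole buds, fewer cells of a type and less RNA per cell cannot be told apart.

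Of the 7 members, Lhx2 fell, Ldb2 rose, and 5 did not pass the test. Over all genes 2.09% were changed, 1.04% higher and 1.05% lower. Lhx2 and Ldb2 were also the members whose KO and WT libraries did not overlap, which held for 3.49% of all genes, 1.67% with KO below and 1.82% with KO above. The median log2 FC of the members was -0.24, against 0.00 over all genes tested. That median is the value of Lmo1, a gene near the filter on low values. The members were chosen with earlier results of these data known, so these figures are a description.

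**Figure D1:**
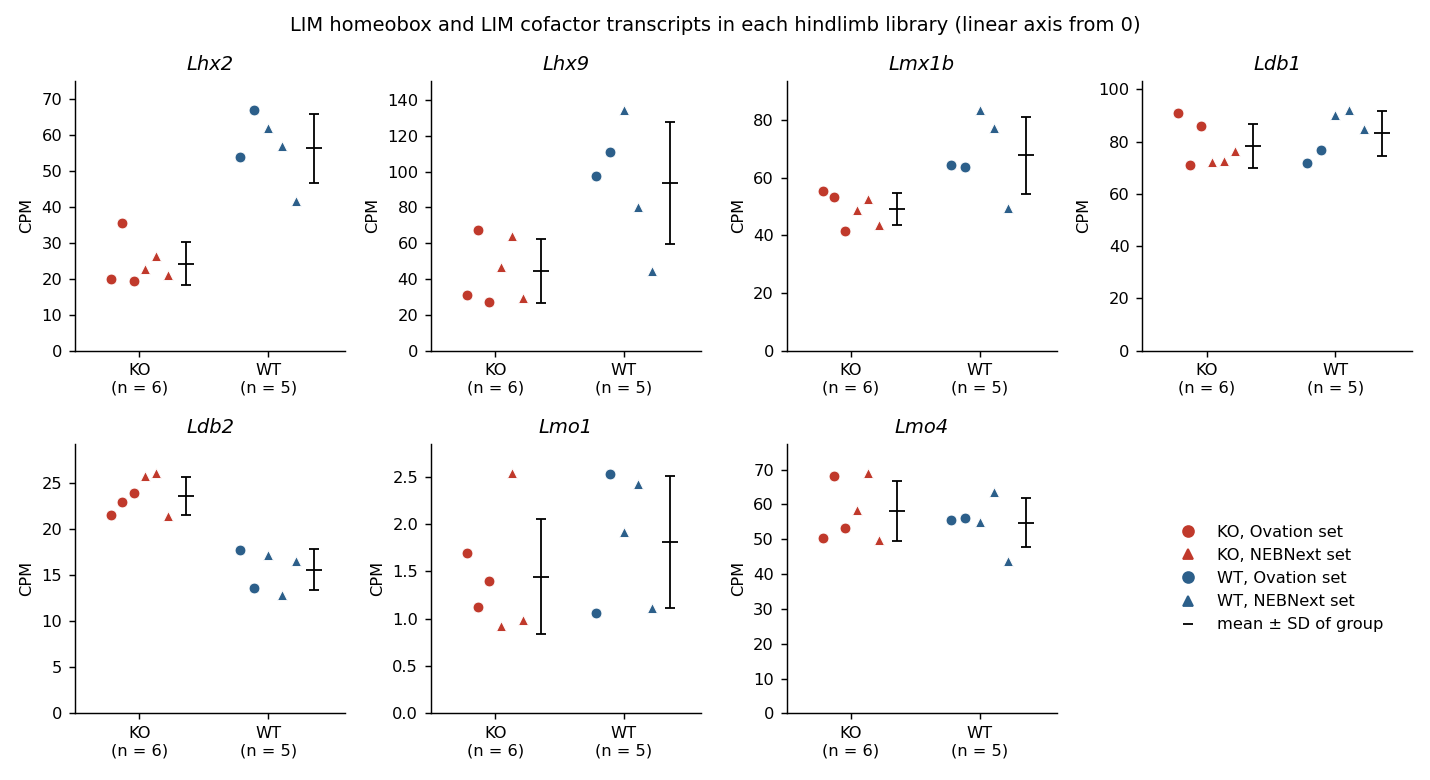
Transcript level in CPM (linear axes from 0) of each LIM member in every library, KO left of WT, with circles for the Ovation set, triangles for the NEBNext set, and a bar for the mean ± SD of each group. All 6 KO libraries lie below all 5 WT libraries for Lhx2 and above them for Ldb2, while the groups overlap for the other members.

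To relate the results to DNA, the region just before the RefSeq transcription starts was read on GRCm38.p6. Windows of 250 bases upstream were held for 6 of the members, at 12 starts. The Lhx2 window is shown because Lhx2 was the member that fell, and it carries no TGACAG, the hexamer bound by Meis proteins, on either strand. It is the stretch of 130 bases on chromosome 2 that ends at the upstream start of the gene, on the + strand.
Lhx2, chr2:38339151-38339280: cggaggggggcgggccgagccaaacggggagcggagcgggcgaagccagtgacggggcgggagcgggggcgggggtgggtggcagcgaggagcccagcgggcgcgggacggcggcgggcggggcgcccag
GC made up 72.8% of the 250 bases there, with 25 CpG, against medians of 52.4% and 6 over 32851 windows of all genes. The hexamer was present on either strand in 15.9% of all windows, and among the members in the Lhx9 window alone. Among the other LIM complex genes described below it was present before Ssbp2 and Ssbp3, which were changed, and before Lhx1 and Rlim, which did not pass the test. The bases around the matches of Lhx9, Ssbp2 and Ssbp3 are shown 5′ to 3′ on the strand of each gene, with the hexamer or its complement in capitals.
Lhx9, chr1:138842552-138842581, - strand: tgagaggaggtaTGACAGgtctttgttgtc
Ssbp2, chr13:91461012-91461041, + strand: gggaggggaggcCTGTCAgtctcgcgcgtt
Ssbp3, chr4:106911355-106911384, + strand: gcgcggccgtgcTGACAGgcgtccctctcg
The match starts 125 bases before the RefSeq start used for Lhx9, 73 bases before that for Ssbp2 and 103 bases before that for Ssbp3. All 3 of these RefSeq starts lie inside the gene as GENCODE draws it, downstream of its outermost start. A match of letters is no measure of binding, and these windows leave out distal enhancers.

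Lhx2 (ENSMUSG00000000247, chromosome 2, 38339281 to 38369733, + strand) was lower in every KO library. It was at 20.01, 35.4 and 19.4 CPM in KO S_258, S_280 and S_284, and at 22.8, 26.2 and 21.1 CPM in KO 2, KO 3 and KO 4. WT libraries held 53.7 and 66.9 CPM in S_252 and S_254, and 62.0, 56.9 and 41.7 CPM in WT 1, WT 3 and WT 4. KO S_280, the embryo with the most somites, was the highest of the KO libraries, and WT 4 the lowest of the WT libraries, and no KO library reached WT 4. Lhx2 averaged 24.2 ± 6.01 CPM in KO (SD, n = 6) and 56.2 ± 9.53 CPM in WT (SD, n = 5). The log2 FC was -1.23 ± 0.157 (SE), or 2.34-fold lower, with a limma adjusted p of 0.00275. By its p-value Lhx2 stood 10th among all genes. The FC was of similar size in both sets, -1.31 in Ovation and -1.16 in NEBNext, and the difference between sets was -0.14 with an adjusted p of 0.899. The call held without each library in turn, with log2 FCs between -1.33 and -1.16. In the NEBNext set alone, where 6 libraries were fitted, the adjusted p was 0.0740.

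Lhx9 (ENSMUSG00000019230, chromosome 1, 138825186 to 138848577, - strand), the closest paralog of Lhx2, had a mean difference nearly as large but a wider spread. KO S_258, S_280 and S_284 held 31.3, 67.5 and 27.1 CPM, and KO 2, KO 3 and KO 4 held 46.9, 63.8 and 29.3 CPM. The values were 97.6 and 111 CPM in WT S_252 and S_254, and 134, 80.5 and 44.3 CPM in WT 1, WT 3 and WT 4. The groups overlapped through WT 4, which lay below KO 2, KO 3 and KO S_280, while the other WT libraries were above every KO library. Lhx9 averaged 44.3 ± 18.0 CPM in KO and 93.6 ± 33.9 CPM in WT, giving a log2 FC of -1.08 ± 0.299 (SE), a 95% interval of -1.72 to -0.44 and a limma adjusted p of 0.0879. The log2 FC was -1.42 in Ovation and -0.81 in NEBNext, and the difference between sets of -0.61 had an adjusted p of 0.717. Without WT 4 the log2 FC was -1.32 with a limma adjusted p of 0.0220. Of 11 fits that each left out 1 library, only 1, this one, passed the threshold. The limma adjusted p reached 0.240 among the others. The two-sided exact permutation test of group labels within sets, which is for single values and not adjusted over genes, gave p = 0.03 with all 11 libraries, where 0.005 is the smallest it can give.

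Lmx1b (ENSMUSG00000038765, chromosome 2, 33560965 to 33640511, - strand) showed a smaller difference of the same sign. Its KO values were 55.3, 53.1 and 41.4 CPM in S_258, S_280 and S_284, and 48.9, 52.7 and 43.4 CPM in KO 2, KO 3 and KO 4. Its WT values were 64.5 and 63.8 CPM in S_252 and S_254, and 83.5, 77.3 and 49.4 CPM in WT 1, WT 3 and WT 4. The overlap again came from WT 4 alone. Lmx1b averaged 49.1 ± 5.65 CPM in KO and 67.7 ± 13.2 CPM in WT, with a log2 FC of -0.44 ± 0.128 (SE), a 95% interval of -0.72 to -0.17 and a limma adjusted p of 0.103. The sets gave -0.37 (Ovation) and -0.50 (NEBNext), and their difference of 0.13 had an adjusted p of 0.889. Without WT 4 the log2 FC was -0.55 with a limma adjusted p of 0.0213. As for Lhx9, only 1 of the 11 fits without 1 library passed, and the limma adjusted p reached 0.220 among the others. WT 4 was also the highest WT library for Isl1, a LIM homeobox gene of early HL mesenchyme, at 39.7 CPM against 17.4 to 22.6 CPM in the other WT libraries. The part of this library's composition in the overlap was not tested.

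The LIM homeobox transcripts were also set against each other within each library. The ratio of Lmx1b to Lhx2 CPM, in which the scaling of the library cancels, was between 1.502 and 2.77 in KO and between 0.953 and 1.36 in WT, so that the groups did not overlap. It averaged 2.10 ± 0.403 in KO and 1.21 ± 0.164 in WT. The gap was present in both sets, since KO lay between 1.502 and 2.77 and WT between 0.953 and 1.202 in Ovation, while KO lay between 2.01 and 2.14 and WT between 1.18 and 1.36 in NEBNext. The ratio of Lhx9 to Lhx2 overlapped, with 1.39 to 2.43 in KO and 1.06 to 2.17 in WT. These ratios were chosen after the values were seen and are a description without a test. They compare a gene's CPM with another's only between libraries, not between genes.

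**Figure D2:**
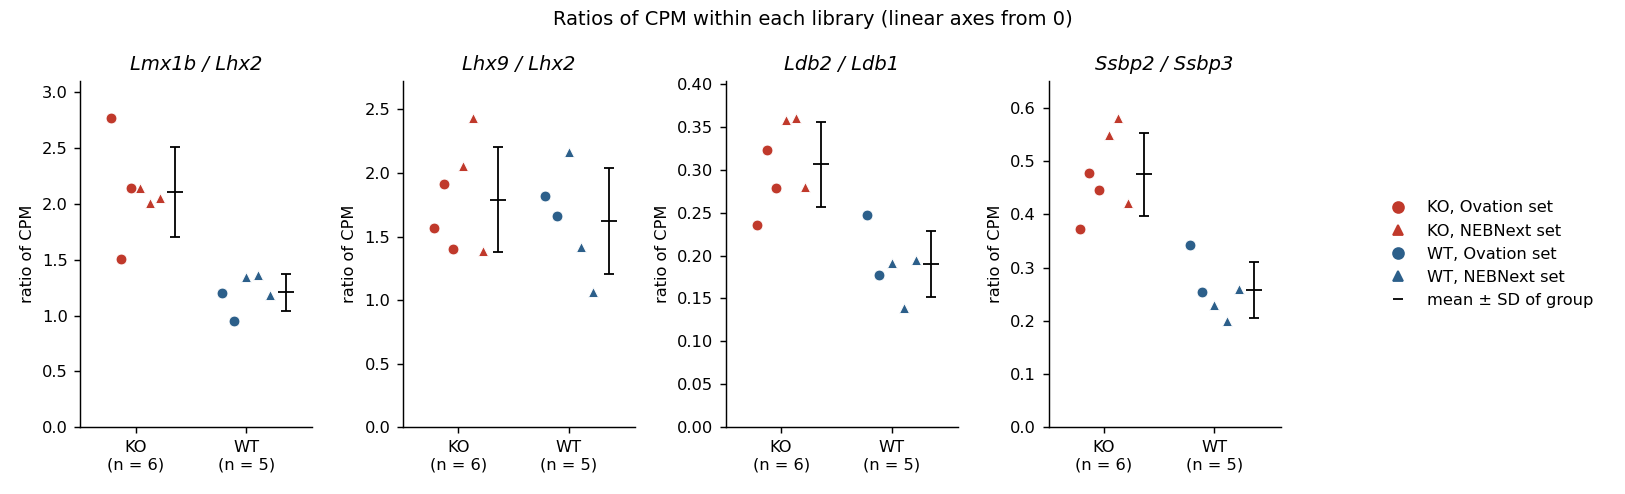
Ratio of CPM of 2 genes within each library (linear axes from 0), KO left of WT, with circles for Ovation, triangles for NEBNext and bars for mean ± SD of each group. Lmx1b over Lhx2 and Ssbp2 over Ssbp3 are higher in every KO library than in any WT library, whereas Lhx9 over Lhx2 overlaps widely and Ldb2 over Ldb1 overlaps at KO S_258 and WT S_252. For Ssbp2 over Ssbp3 the gap follows from the levels of the 2 genes, whose groups stand apart in opposite directions.

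Among the cofactors Ldb2 rose, while Ldb1, Lmo1 and Lmo4 did not pass the test. Ldb2 (ENSMUSG00000039706, chromosome 5, 44472132 to 44799680, - strand), which encodes a dimerizing LIM binding protein like Ldb1, was higher in every KO library. It was at 21.5, 23.0 and 24.0 CPM in KO S_258, S_280 and S_284, and at 25.8, 26.2 and 21.4 CPM in KO 2, KO 3 and KO 4. WT S_252 and S_254 held 17.7 and 13.7 CPM, and WT 1, WT 3 and WT 4 held 17.2, 12.8 and 16.6 CPM. The lowest KO library, KO 4, was above the highest WT library, WT S_252, and both groups were narrow. Ldb2 averaged 23.6 ± 2.05 CPM in KO and 15.6 ± 2.23 CPM in WT, with a log2 FC of 0.60 ± 0.114 (SE), or 1.51-fold higher, and a limma adjusted p of 0.0173. Both sets showed it, at 0.54 in Ovation and 0.64 in NEBNext, and the difference between sets of -0.11 had an adjusted p of 0.896. The call was lost without KO 2 (adjusted p of 0.0641) or without WT S_254 (0.0637), with log2 FCs of 0.57 and 0.55. Ldb2 is also expressed in endothelium, whose markers, all 8 in the table and none changed, summed to between 209 and 283.9 CPM in KO and between 194 and 251 CPM in WT. The part of endothelial content in the Ldb2 difference was not tested.

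Ldb1 (ENSMUSG00000025223, chromosome 19, 46031570 to 46045214, - strand), the broadly expressed LIM binding gene, did not pass the test. KO S_258, S_280 and S_284 were at 91.1, 71.2 and 85.9 CPM, and KO 2, KO 3 and KO 4 at 72.2, 72.7 and 76.5 CPM. WT S_252 and S_254 were at 71.9 and 76.9 CPM, and WT 1, WT 3 and WT 4 at 90.2, 92.2 and 85.0 CPM. All 3 NEBNext KO libraries lay below all 3 NEBNext WT libraries, and the order was mixed in Ovation. The share of all genes that separate within a set was not counted. Means were 78.3 ± 8.31 CPM in KO and 83.2 ± 8.63 CPM in WT, and the log2 FC was -0.09 with a 95% interval of -0.28 to 0.11 and a limma adjusted p of 0.748. It was 0.15 ± 0.129 (SE) in Ovation and -0.27 ± 0.0866 (SE) in NEBNext, and this difference of 0.42 had an adjusted p of 0.265. The ratio of Ldb2 to Ldb1 CPM was between 0.236 and 0.360 in KO and between 0.139 and 0.247 in WT, with an overlap of KO S_258 and WT S_252 only.

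The LIM-only members, whose proteins compete for Ldb, did not pass the test either. Lmo4 (ENSMUSG00000028266, chromosome 3, 144188530 to 144205220, - strand) was at 50.3, 68.1 and 53.4 CPM in KO S_258, S_280 and S_284, and at 58.3, 69.1 and 49.9 CPM in KO 2, KO 3 and KO 4. It was at 55.6 and 56.1 CPM in WT S_252 and S_254, and at 55.0, 63.5 and 43.6 CPM in WT 1, WT 3 and WT 4. KO libraries lay on both sides of the WT libraries, and the log2 FC was 0.08 with a 95% interval of -0.17 to 0.33 and a limma adjusted p of 0.825. Lmo1 (ENSMUSG00000036111, chromosome 7, 109138572 to 109175207, - strand) was near the filter on low values, with 0.92, 1.26 and 2.54 CPM as its lowest, median and highest KO values and 1.06 to 2.53 CPM in WT. Its log2 FC of -0.24 had a 95% interval of -0.85 to 0.37 and a limma adjusted p of 0.774, so that sizeable differences in either direction are within the error.

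**Figure D3:**
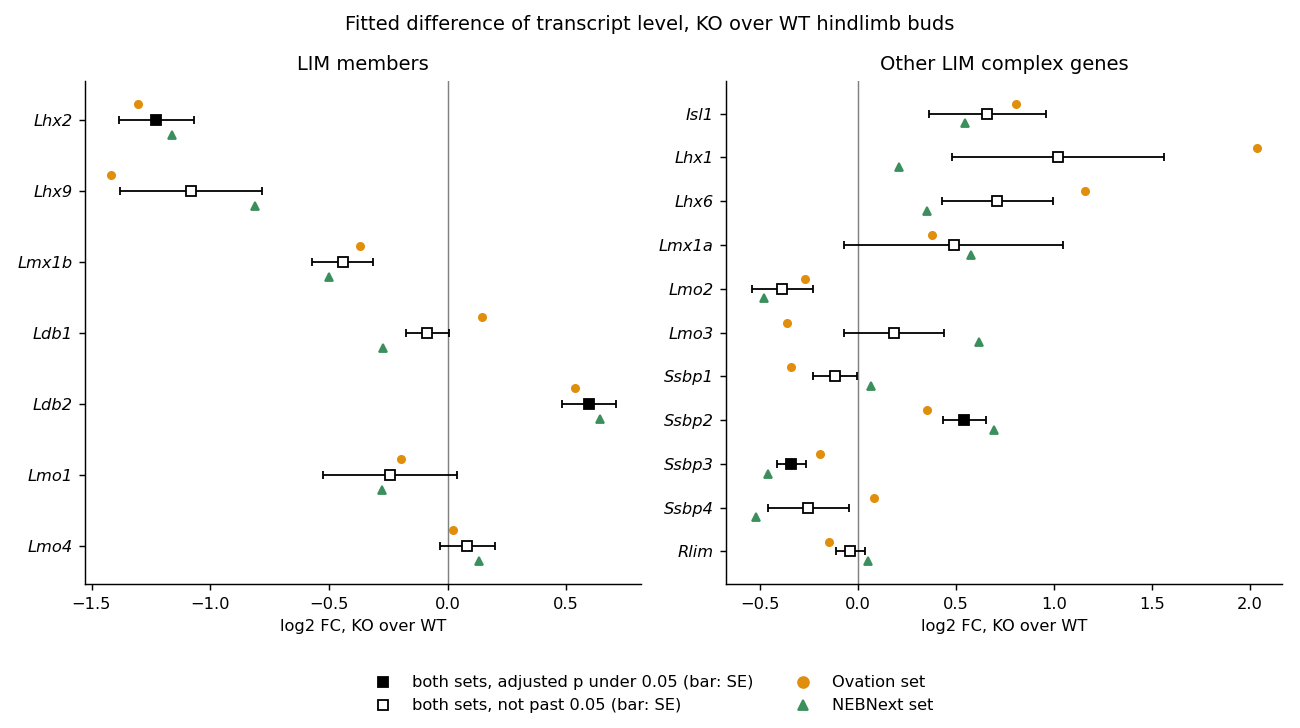
Fitted log2 FC of KO over WT for the LIM members (left) and the other measured LIM complex genes (right), with squares for both sets together (bars are SE, filled where the adjusted p was under 0.05), circles for Ovation and triangles for NEBNext. Lhx2 and Ssbp3 lie below 0 and Ldb2 and Ssbp2 above it with filled squares.

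To set the members side by side, CPM were divided by gene length in kb (the union of exons in GENCODE). In KO buds the order of these length-scaled levels was Ldb1 (16.99 ± 1.805), Lmo4 (16.5 ± 2.45), Lmx1b (10.1 ± 1.16), Ldb2 (7.09 ± 0.616), Lhx2 (5.50 ± 1.37), Lhx9 (4.67 ± 1.89) and Lmo1 (0.931 ± 0.393). In WT buds it was Ldb1 (18.1 ± 1.87), Lmo4 (15.5 ± 2.02), Lmx1b (13.9 ± 2.71), Lhx2 (12.8 ± 2.17), Lhx9 (9.86 ± 3.57), Ldb2 (4.68 ± 0.667) and Lmo1 (1.17 ± 0.451). In KO the libraries of neighbours in the order overlapped for Ldb1 and Lmo4, for Ldb2 and Lhx2, and for Lhx2 and Lhx9, and stood apart for the other neighbours. In WT only Ldb2 and Lmo1 stood apart from each other, and all neighbours above them overlapped. Ldb2 thus came after Lhx9 in WT and before Lhx2 in KO. With the length of the longest transcript instead, WT levels ran from Lmo4 (32.8) and Ldb1 (26.6) through Lhx2 (19.8), Lhx9 (19.0) and Lmx1b (14.1) to Ldb2 (6.01) and Lmo1 (1.41), so the order of the LIM homeobox genes rests on the length used.

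**Figure D4:**
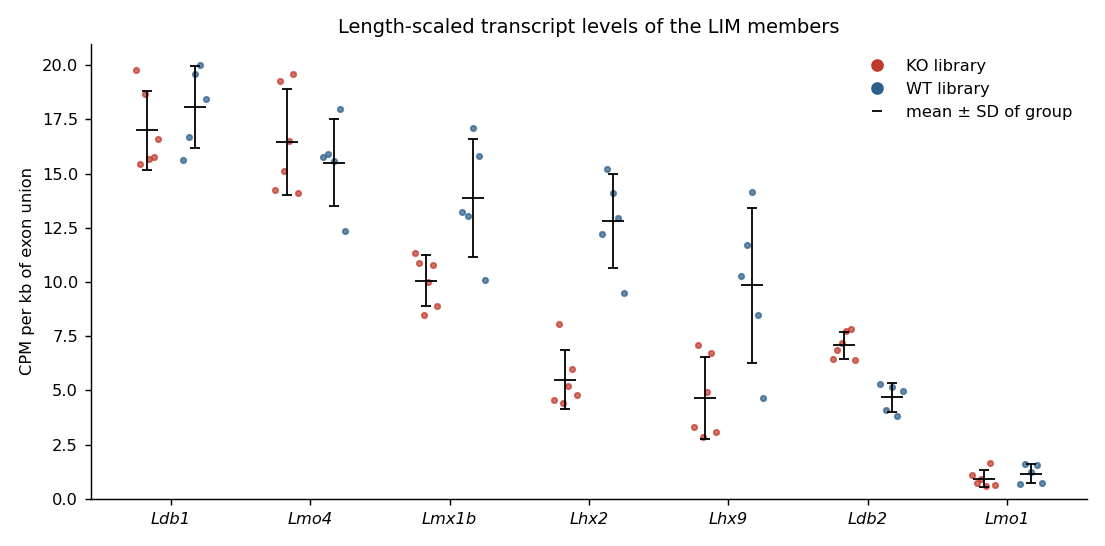
CPM per kb of exon union (linear axis from 0) of each LIM member, with a point per library, KO left of WT, and bars for mean ± SD. Ldb1 and Lmo4 have the highest means in both groups, and Lhx2 and Lhx9 lie beside Lmx1b in WT and beside Ldb2 in KO.

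Other genes of the LIM complex were taken from a list of 16, of which Isl2, Lhx3, Lhx4, Lhx5 and Lhx8 were not in the table. Of the 11 measured genes, 1 rose, 1 fell and 9 stayed short of the threshold, where 1.04% of all genes rose and 1.05% fell. The median log2 FC of the 11 was 0.18, against 0.00 over all genes tested. Both that changed are Ldb-bound cofactors. Ssbp2 (chromosome 13) was at 61.3, 69.2 and 74.1 CPM in KO S_258, S_280 and S_284, and at 80.6, 81.5 and 65.0 CPM in KO 2, KO 3 and KO 4. WT S_252 and S_254 held 60.4 and 46.9 CPM, and WT 1, WT 3 and WT 4 held 51.7, 39.7 and 48.5 CPM. No KO library was below a WT library, although KO S_258 and WT S_252 lay close together. Ssbp2 averaged 72.0 ± 8.24 CPM in KO and 49.5 ± 7.54 CPM in WT, a log2 FC of 0.54 ± 0.110 (SE), at a limma adjusted p of 0.0224. It stayed past the threshold in 7 of 11 fits that each left out 1 library, and was lost without KO S_284 (0.0507), KO 2 (0.0782), KO 3 (0.0512) or WT S_254 (0.0749).

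Ssbp3 (chromosome 4), known as a partner of Ldb1, fell. It was at 164, 145 and 166 CPM in KO S_258, S_280 and S_284, and at 147, 140 and 154 CPM in KO 2, KO 3 and KO 4. It was at 177 and 185 CPM in WT S_252 and S_254, and at 224, 198 and 186 CPM in WT 1, WT 3 and WT 4. Every KO library was below every WT library, with means of 153 ± 10.7 CPM in KO and 194 ± 18.4 CPM in WT. The log2 FC was -0.34 ± 0.0755 (SE) with a limma adjusted p of 0.0343, a call that held in 4 of the 11 fits without 1 library, where adjusted p lay between 0.0353 and 0.103. With no variance trend neither Ssbp gene passed (0.0633 for Ssbp2 and 0.0925 for Ssbp3), nor did Ssbp3 under quantile normalization (0.0556). The ratio of Ssbp2 to Ssbp3 was between 0.373 and 0.581 in KO and between 0.201 and 0.342 in WT. Its groups could not overlap, since every KO library lay above WT for Ssbp2 and below WT for Ssbp3. The ratio thus restates the levels of both genes and is a description without a test.

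The other LIM homeobox and LIM-only genes of the list did not pass. Isl1 was at 37.5 ± 14.5 CPM in KO and 23.1 ± 9.53 CPM in WT, a log2 FC of 0.66 (limma, adjusted p = 0.327). Log2 FCs of Lhx1, Lhx6 and Lmx1a were 1.02, 0.71 and 0.49, with limma adjusted p of 0.416, 0.255 and 0.770. Lmo2, known from blood and endothelium, gave -0.39 (0.263) and Lmo3 0.18 (0.827). Intermediate mesoderm markers, a list that itself holds Lhx1, summed to between 12.6 and 37.3 CPM in KO and between 10.9 and 26.8 CPM in WT, and 1 of the 5 tested was changed, Gata3, at 9.74 CPM in KO and 4.98 CPM in WT. The neuron markers Mnx1, Elavl3, Stmn2 and Olig2 were not in the table, and Tubb3, Elavl4 and Nefl summed to between 4.05 and 6.36 CPM in KO and between 6.42 and 8.36 CPM in WT. The part of adjacent tissue in the levels of Isl1 and Lhx1 was not tested. The mitochondrial Ssbp1, which is no Ldb partner, gave -0.12 (0.710), Ssbp4 -0.26 (0.642), and Rlim, a ubiquitin ligase that targets Ldb proteins, -0.04 (0.874).

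Genes with LIM domains but no role in the Ldb complex were described for comparison. Of 30 cytoskeletal and adhesion genes such as Fhl, Pdlim and Lims genes, 27 were in the table and 26 were tested, and none was changed in the limma fit, while 4 of the 26 had an unadjusted p under 0.05, as did 14.7% of all genes. Their median log2 FC was 0.06. The smallest p-values belonged to Crip1 at -0.97 (limma adjusted p of 0.141), Prickle1 at 0.23 (0.274), Ablim1 at 0.24 (0.323) and Pdlim5 at 0.24 (0.338).

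Lmx1b acts in dorsal mesenchyme downstream of the ectodermal ligand Wnt7a, and the ventral ectoderm expresses En1, which restrains Wnt7a, in response to BMP signals. Of 13 dorsoventral genes, 3 fell and 10 stayed short of the threshold, and the median log2 FC was -0.35. Over all genes 1.05% fell, and the median was 0.00. The list was chosen with earlier results of these data known, so its counts are a description. En1 was at 0.634 ± 0.277 CPM in KO and 2.81 ± 0.629 CPM in WT, a log2 FC of -1.57 (limma, adjusted p = 0.00592), and its groups did not overlap. It met the filter of 1 CPM in at least 4 libraries only through WT, at 2.15 to 3.59 CPM against 0.354 to 1.13 CPM in KO. Its entry into the test thus depended on the group where it is high. Bmp7, a BMP ligand, was at 25.4 ± 2.72 CPM in KO and 41.5 ± 7.12 CPM in WT (log2 FC of -0.69, limma adjusted p of 0.00897). Msx1, a homeobox gene that responds to BMP, was at 38.6 ± 2.32 CPM in KO and 62.8 ± 7.03 CPM in WT (log2 FC of -0.69, limma adjusted p of 0.00275). Of those that did not pass, Smad1, which carries the BMP signal, gave -0.35 (0.0521), Msx2 -0.60 (0.0639), the BMP antagonist Bambi -0.51 (0.108) and Bmp4 -0.30 (0.326). Wnt7a itself was at 13.2 ± 4.70 CPM in KO and 17.4 ± 4.68 CPM in WT, and its log2 FC of -0.44 had a limma adjusted p of 0.492. Wnt7a gave -0.99 in Ovation and 0.00 in NEBNext.

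Around Lhx2 and Lhx9, FGFs of the AER act on distal mesenchyme, where Etv4, Etv5, Dusp6 and Spry4 are targets of FGF signalling. Of 20 outgrowth genes 16 were tested, and Fgf4, Fgf9, Fgf17 and Shh were not in the table. Among the 16 tested, 5 fell, 1 rose and 10 stayed short of the threshold, and the median log2 FC was -0.10. Over all genes 1.05% fell and 1.04% rose, with a median of 0.00. This list too was chosen with earlier results of these data known. Fgf8, the AER ligand, was at 0.794 ± 0.929 CPM in KO and 8.01 ± 4.16 CPM in WT, a log2 FC of -2.81 (limma, adjusted p = 0.00635), although the highest KO library, at 2.59 CPM, passed the lowest WT library, at 2.45 CPM. Like En1, Fgf8 met the filter on low values only because of its WT libraries. Spry4 (-1.47), Dusp6 (-1.11), Etv4 (-1.02) and Etv5 (-0.67) fell as well, with limma adjusted p between 0.00560 and 0.0487. Fgfr2, a receptor of FGF10 and related ligands, rose to 120 ± 20.9 CPM in KO, against 80.5 ± 9.23 CPM in WT (log2 FC of 0.57, limma adjusted p of 0.0274). The mesenchymal ligand Fgf10 (-0.57, limma adjusted p of 0.0828), Gli1 (0.81, 0.0927), Ptch1 (0.38, 0.419) and Fgfr1 (-0.16, 0.466) did not pass. Jag1 and Grem1 gave log2 FCs of 0.10 and -0.01, both with overlapping groups.

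**Figure D5:**
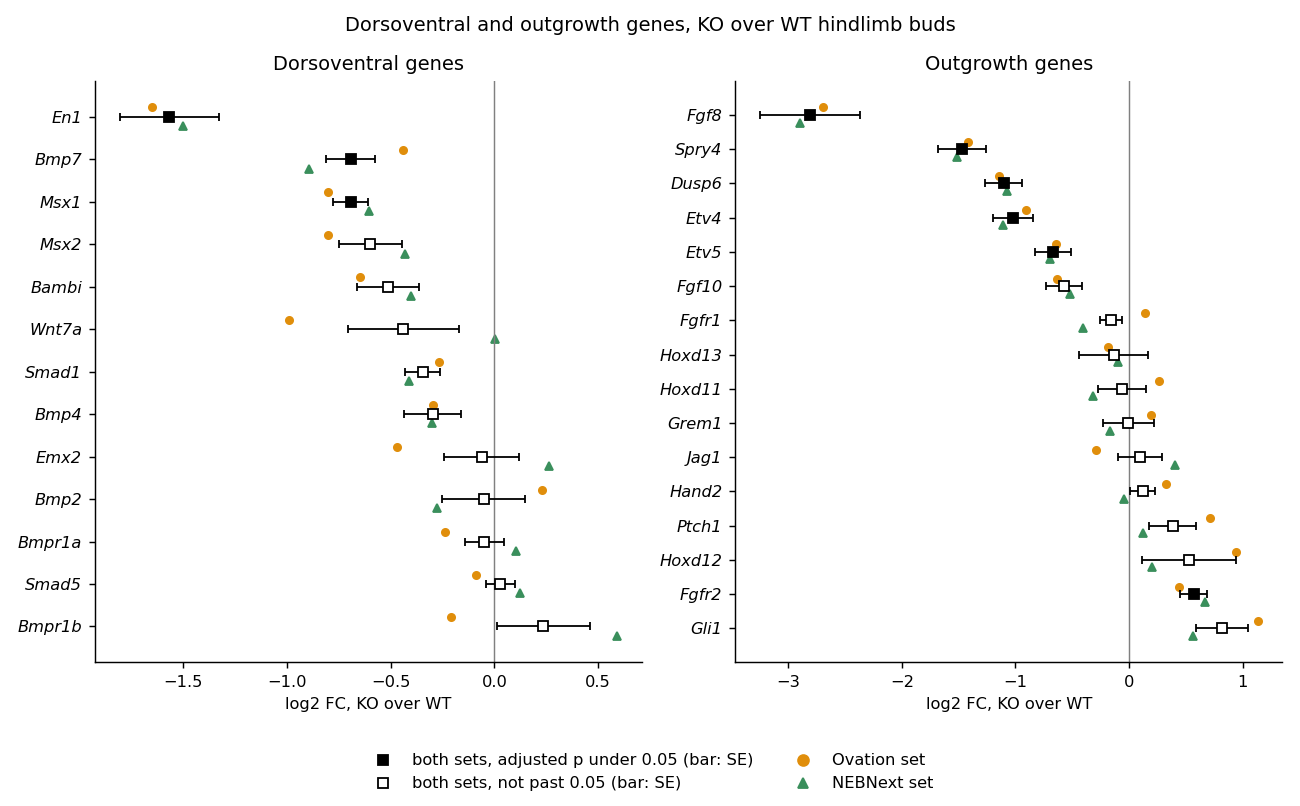
Fitted log2 FC of KO over WT for dorsoventral genes (left) and outgrowth genes (right), drawn as squares with SE for both sets together (filled where the adjusted p was under 0.05), circles for Ovation and triangles for NEBNext. En1, Bmp7 and Msx1 on the left and Fgf8, Spry4, Dusp6, Etv4 and Etv5 on the right are filled below 0, and Fgfr2 is filled above 0.

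The profiles of the members were finally compared over the 11 libraries, after each gene's log2 values were brought to mean 0 and SD 1. The likeness of a pair of genes is given as the root mean square distance between profiles, where 0 is an identical profile. Genotype is part of every profile, so these distances restate the differences above together with the spread within groups, and they carry no p. Among the members Lhx2 and Lhx9 were closest (0.445), followed by Lhx9 and Lmx1b (0.536) and Lhx2 and Lmx1b (0.592), and Lhx2 and Ldb2 were farthest apart (1.92). Over 12006 genes with a symbol of their own, 7 were closer to Lhx9 than Lhx2 was, and 19 were closer to Lhx2 than Lhx9 was. Pknox1 (0.300) and Fgf8 (0.316) were among the genes closest to Lhx2. Pknox1, which encodes another TALE homeodomain protein, was at 22.3 ± 2.57 CPM in KO and 30.5 ± 2.60 CPM in WT. Closest to Lhx9 were Rspo4 (0.275), which encodes a WNT agonist of the R-spondin family, Asb4 (0.328) and Dclk1 (0.346), and closest to Lmx1b were Cntn2 (0.402), Mbnl3 (0.453) and Prdm16 (0.466). None of these 6 genes passed the test for KO against WT.

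The cofactor Ldb2 was closest to Skap2 (0.208), Ssbp2 (0.231) and Nr2f2 (0.233), the last an orphan nuclear receptor. All 3 were higher in KO, Skap2 at 32.4 ± 2.04 CPM in KO and 18.2 ± 3.74 CPM in WT, and Nr2f2 at 175 ± 19.7 CPM in KO and 117 ± 17.5 CPM in WT, with limma adjusted p of 0.00592 and 0.0105. Nckap5l (0.220), Ddx54 (0.327) and Tagln3 (0.336) were closest to Ldb1, and Hmgb2 (0.434), Ddx55 (0.476) and Cldn1 (0.501) to Lmo4, and none of these 6 passed the test.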

How the data were processed

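The deposited table gives CPM, read counts divided by a scaled library total and not in logs, for 13720 genes in 11 libraries. Per the labels and the study's methods, the authors trimmed reads with cutadapt (1.3 for Ovation), estimated counts with RSEM (1.2.3 for Ovation) on GRCm38, scaled them by TMM and corrected library sets with ComBat. Whether genotypes were given to ComBat is not stated, and such a correction can lower the residual spread. That the values are those after ComBat was read from the table. Low-value genes had been removed, no value was 0, and CPM summed to 754534 to 805762 per library. Read totals are not recoverable, so depth is unknown.

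Genes that reached 1 CPM in at least 4 libraries (12996) entered a limma model (limma 3.58.1, R 4.3.3) of log2(CPM + 0.5), whose terms were genotype and library set, with a mean-variance trend and 8 residual degrees of freedom. Tests were two-sided with Benjamini-Hochberg adjustment over all genes, at a threshold of 0.05, and an interaction model compared the sets. The fits were tested on simulated data. Libraries were also permuted within sets in all 200 arrangements. Gene lengths and positions came from GENCODE M21. Alternatives changed the pseudocount, filter, scaling, variance model, set term, block and libraries. Named genes were the members, all measured genes of the LIM complex list, the changed genes and up to 4 others of each further list, and the 3 genes most alike each member that was changed or averaged at least 20 CPM. Genes named outside this rule (Jag1, Grem1, Wnt7a, and markers beside a result) were chosen for their role or after their values were seen. Some genes that the rule takes are left out of the text. The members and lists were chosen with earlier results of these data known.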

Additional observations from a re-analysis of the deposited data

Results flagged for a closer look

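Among 36 groups of libraries examined for a value far from the rest, of which chance alone gives about 1 in 20, 2 had one. Isl1 was at 39.73 CPM in WT 4, against 17.4 to 22.6 CPM in the other WT libraries. Ssbp4 was at 6.671 CPM in KO S_284, against 3.04 to 4.11 CPM in the other KO libraries.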

How the results depend on the processing

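Lhx2 remained lower and past the threshold in 13 of 14 other settings. These include the exact permutation test, whose p of 0.01 is not adjusted over genes. In the NEBNext set alone Lhx2 was at -1.16 (limma adjusted p of 0.0740). Ldb2 was no longer past it with the Ovation set limited to litter 1 (0.59), in the Ovation set alone (0.54) or in the NEBNext set alone (0.64). Ldb1 was at 0.15 in the Ovation set alone. By the exact permutation test, whose p is not adjusted over genes, Lhx9 (-1.08) and Lmx1b (-0.44) were under the threshold. Without 1 library each, log2 FCs ran from -1.33 to -1.16 for Lhx2, -1.32 to -0.92 for Lhx9, -0.55 to -0.36 for Lmx1b, -0.15 to -0.05 for Ldb1, 0.53 to 0.67 for Ldb2, -0.42 to -0.09 for Lmo1 and 0.01 to 0.14 for Lmo4. The difference between sets ran likewise from -0.42 to 0.025 for Lhx2, -1.01 to -0.20 for Lhx9, -0.013 to 0.36 for Lmx1b, 0.34 to 0.52 for Ldb1, -0.29 to 0.076 for Ldb2, -0.40 to 0.56 for Lmo1 and -0.24 to 0.035 for Lmo4, and for Lmo1 it was -0.044 under quantile normalization. Rlim ran from -0.096 to 0.017, the value without WT S_252. Among the other LIM complex genes 2 were changed, against 1 under quantile normalization, 0 with no variance trend and 0 to 2 without 1 library. Over all genes 272 were changed, against 102 with litter 1, 150 in Ovation alone, 3 in NEBNext alone and 106 to 337 without 1 library (168 without KO S_284, 106 without KO 2, 124 without WT S_252, 127 without WT S_254). No gene passed the adjusted threshold for a difference between sets, while 1694, or 13% of all genes, had an unadjusted p under 0.05 in the limma interaction model. With a robust variance prior 13 genes passed, and 46 passed without KO S_280. The causes were not tested.

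Deviations of NEBNext libraries with the same number correlated at 0.201 (number 3) and -0.0368 (number 4), so the numbers are not shown to pair embryos. With these numbers as a replicate block 290 genes were changed, and Lhx9 (-1.08, adjusted p of 0.0399) and Lmx1b (-0.44, adjusted p of 0.0467) were past the threshold. No other member or LIM complex gene crossed it. Unknown depth limits statements on Lmo1, Lhx1, Lhx6, Lmx1a, En1 and Fgf8, which are low.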
